A study of Mus musculus with 120 samples.

Results

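The 6 GATA transcription factor genes of the mouse, Gata1 to Gata6, were followed across the libraries of dissected gastrulas and of an embryonic stem cell line. They were chosen by name as a gene family, with earlier results of these data known. All 6 were found among the 23154 genes of both count tables. The embryo libraries came from ICR mice, an outbred strain, collected 6.5 days post coitum (E6.5), at E7.0 and at E7.5. At each stage the extra-embryonic tissue (ExE) was separated from the embryo proper, which stayed whole at E6.5 (Epi) and was cut into A and P at E7.0 and into A, AM and P at E7.5. The latter are called the embryonic part here. The labels do not spell out the letters A, P and AM. That gives 9 groups of 2 libraries, and nothing in the labels says how many embryos were pooled or whether a pair came from separate litters. The cell libraries came from E14/TG2A, a line of mouse embryonic stem cells, either unedited (WT) or lacking the enhancer Enh9E after CRISPR-Cas9 deletion (KO). Both kinds of cells were sampled undifferentiated (D0) and after 8 days of neural differentiation (D8), with 2 WT and 3 KO libraries per day. The labels do not say whether the KO libraries came from 1 clone or several. P-values therefore measure the spread between these libraries, which may be technical.

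GATA factors carry zinc fingers that bind the letters GATA in DNA. Gata1, Gata2 and Gata3 are known for blood: Gata1 drives red cell and megakaryocyte maturation, Gata2 keeps early blood progenitors, and Gata3 directs T cells. Gata2 and Gata3 also act in trophoblast, the lineage of the placenta that includes the extra-embryonic ectoderm. Gata4, Gata5 and Gata6 are known for endoderm and heart, and forced expression of Gata4 or Gata6 in embryonic stem cells is known to turn them into extra-embryonic endoderm.

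The 250 bases before annotated starts in the RefSeq promoter table of GRCm38.p6 are shown because these starts differ in base composition. The windows of Gata1, Gata3 and Gata5 lie inside the gene spans given below, so further starts of these genes may lie upstream. Windows are given for 4 of the 6 members, and none is given for Gata4 or Gata6. Gata2 has 2 starts, of which the first is printed. Capitals mark each CG, the dinucleotide that carries DNA methylation in mammals.
Gata1, chrX:7967911-7968160, minus strand: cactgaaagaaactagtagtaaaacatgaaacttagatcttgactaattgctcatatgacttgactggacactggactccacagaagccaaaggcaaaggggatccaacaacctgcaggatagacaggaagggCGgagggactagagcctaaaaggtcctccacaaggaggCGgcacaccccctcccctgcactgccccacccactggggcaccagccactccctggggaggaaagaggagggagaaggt
Gata2, chr6:88193641-88193890, plus strand: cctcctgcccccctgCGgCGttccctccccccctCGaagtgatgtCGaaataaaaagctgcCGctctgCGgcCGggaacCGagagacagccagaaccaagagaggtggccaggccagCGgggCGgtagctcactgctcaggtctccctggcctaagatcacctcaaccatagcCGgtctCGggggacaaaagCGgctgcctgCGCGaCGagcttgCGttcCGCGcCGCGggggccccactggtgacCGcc
Gata3, chr2:9878601-9878850, minus strand: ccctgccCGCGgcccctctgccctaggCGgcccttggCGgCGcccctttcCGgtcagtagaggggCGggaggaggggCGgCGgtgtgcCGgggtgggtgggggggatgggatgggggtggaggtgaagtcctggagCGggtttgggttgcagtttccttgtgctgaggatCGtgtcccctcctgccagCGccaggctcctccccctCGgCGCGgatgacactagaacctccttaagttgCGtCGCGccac
Gata5, chr2:180334680-180334929, minus strand: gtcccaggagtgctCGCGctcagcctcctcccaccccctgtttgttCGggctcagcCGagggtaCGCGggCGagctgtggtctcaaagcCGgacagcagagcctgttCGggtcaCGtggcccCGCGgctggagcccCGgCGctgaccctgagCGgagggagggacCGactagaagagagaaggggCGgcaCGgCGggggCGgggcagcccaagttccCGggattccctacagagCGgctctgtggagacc

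The Gata1 window held 2 CG, against 22 in the window of Gata2, 19 in that of Gata3 and 22 in that of Gata5. The second Gata2 start had 24. Over all 32851 promoter windows of this length the median was 6 CG, and 29% of windows had at most 2. GC content was 54.0% before Gata1 and from 67.2% to 74.0% in the other windows, against a median of 52.4%. GATA-type sites were searched on both strands as 4 spellings. The first was AGATAA. The second was AGATAG. The third was TGATAA. The last was TGATAG. These spellings can overlap one another. None of the windows given for these 4 members held any of them, while 26.5% of all windows held at least 1. That says only that those letters are not in these windows.

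The members lie apart in the genome, in GRCm38 coordinates. Gata1 lies at chrX:7959260-7976663, Gata2 at chr6:88193891-88207032 and Gata3 at chr2:9857078-9887953. Gata4 lies at chr14:63198914-63271712, Gata5 at chr2:180325088-180335503 and Gata6 at chr18:11052510-11085636. Long noncoding RNAs overlap Gata3 and Gata5, and their counts were small: 0 to 9 per embryo library for 4930412O13Rik, 0 to 2 for 9230102O04Rik and 0 to 6 for Gata5os. Further ones are annotated over Gata1 (Gm39488 and Gm52419), Gata2 (Gm38708) and Gata6 (Gata6os), and their reads were not analysed here. Whether counting used strand is not given in the sources used here.

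Library totals ran from 5.15 to 17.1 M counts in embryos and from 5.96 to 13.2 M in cells. Levels are given as CPM, counts scaled to a common library size, after TMM scaling, a correction for differences in RNA composition. They compare 1 gene between libraries, not different genes, since transcript lengths were not used. A change is called where edgeR's quasi-likelihood test, adjusted over all genes tested by Benjamini-Hochberg, gave a p under 0.05, and fold changes are log2 values ± their standard error. The dissections carried their labels' markers: 6 extra-embryonic ectoderm markers summed to 319 to 397 CPM in E6.5 ExE and 92.5 to 116 CPM in E6.5 Epi, and 6 epiblast markers to 161 to 164 CPM and 1099 to 1224 CPM. Visceral endoderm, the epithelium that wraps both parts, was not confined to ExE. Its 6 markers summed to 2599 to 4618 CPM in E6.5 Epi and 3634 to 5991 CPM in E6.5 ExE, and at E7.5 to 3.14 to 381 CPM in A, 340 to 4613 CPM in P, 885 to 5357 CPM in AM and 7284 to 7952 CPM in ExE. In such bulk tissue, fewer cells of a type and less RNA per cell cannot be told apart.

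**Figure D1:**
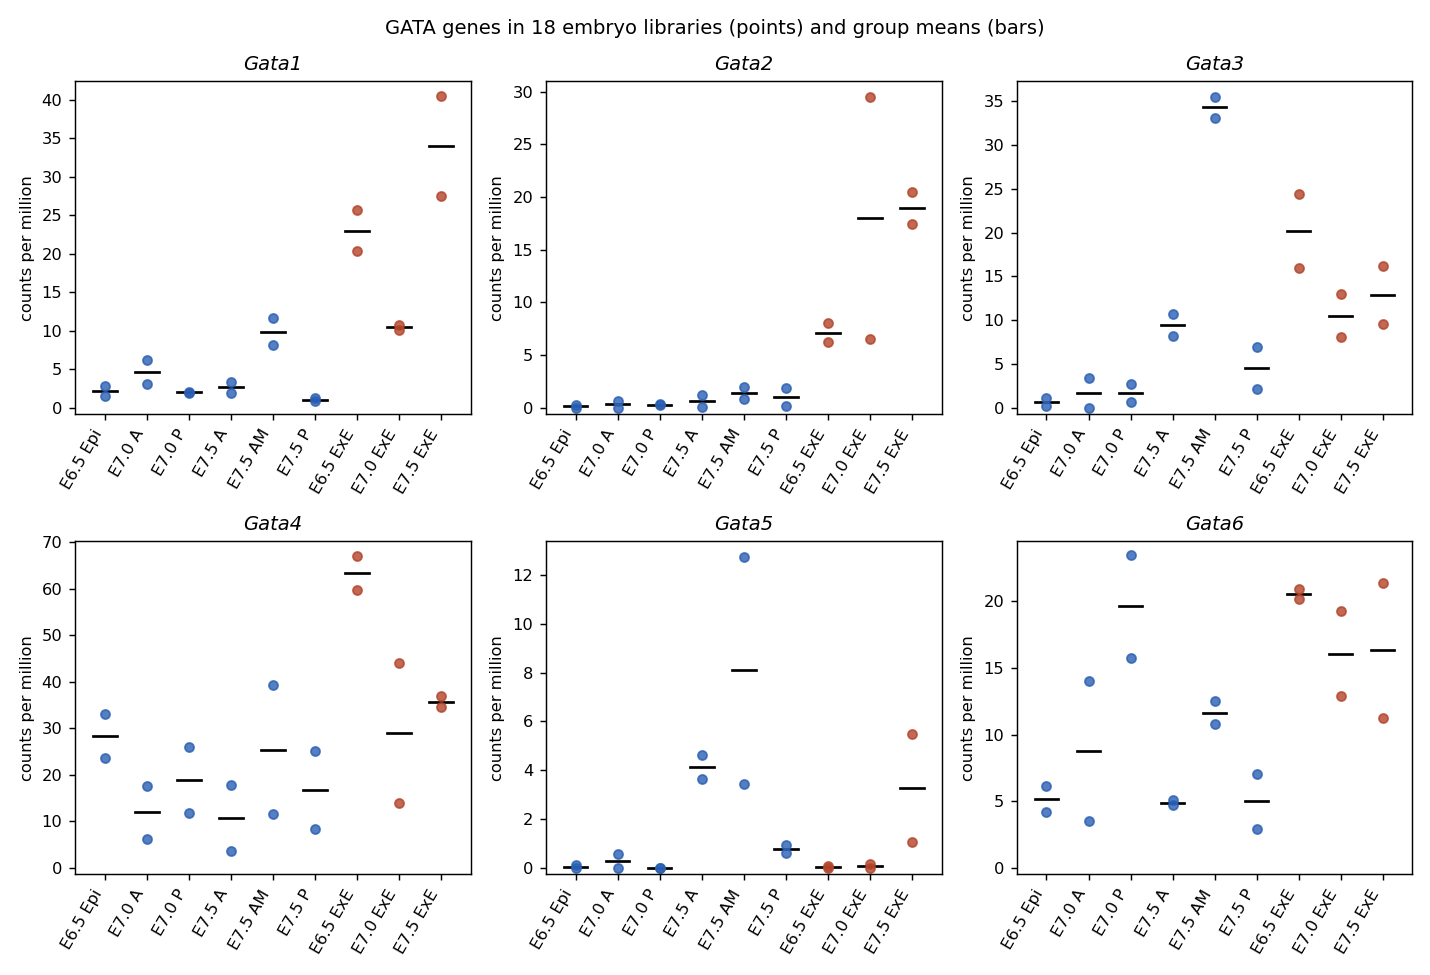
Level of each GATA gene in CPM (vertical axis, its own linear scale per gene) in the 18 embryo libraries, grouped by stage and dissected part along the horizontal axis; points are libraries, bars group means, blue the embryonic groups and red ExE. Gata1 and Gata2 stand highest in ExE, Gata3 is highest in E7.5 AM at 33.1 and 35.5 CPM, and Gata5 appears at E7.5.

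Gata1, Gata2 and Gata3 were higher in the extra-embryonic than in the embryonic part at E6.5 and at E7.0, and Gata1 and Gata2 also at E7.5. At E6.5 4 of the 6 members were called higher in ExE than in Epi and none lower, beside 3.69% of all tested genes higher and 5.24% lower. At E7.0, against the mean of A and P, 3 were higher and none lower, beside 10% higher and 8.14% lower among all genes. At E7.5, against the mean of A, AM and P, again 3 were higher and none lower, beside 13.4% and 7.91%.

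Gata1 was at 20.3 and 25.7 CPM in E6.5 ExE and at 1.48 and 2.77 CPM in Epi, a log2 difference of 3.42 ± 0.51 (adjusted p = 0.000422). At E7.0 ExE held 10.1 and 10.8 CPM, against 3.04 and 6.24 CPM in A and 1.90 and 2.07 CPM in P, a difference of 1.79 ± 0.39 (adjusted p = 0.00532). At E7.5 its ExE libraries held 27.5 and 40.5 CPM, and the 6 embryonic libraries lay between 0.918 and 11.6 CPM, a difference of 3.47 ± 0.34 (adjusted p = 5.98e-06). At all 3 stages every ExE library was above every embryonic library of its stage. Along its order of groups, E7.5 ExE (34.0 ± 9.2 CPM, SD, n = 2) was clear of E6.5 ExE (23.0 ± 3.8 CPM, n = 2). The libraries of E7.0 ExE (10.4 ± 0.48 CPM, n = 2) overlapped those of E7.5 AM (9.86 ± 2.5 CPM, n = 2).

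Gata2 was close to undetected in the early embryonic part and stood out in ExE at every stage. The 2 E6.5 Epi libraries held 3 counts together and the 2 ExE libraries 126, a ratio of 43.5 with a 95% counting interval of 14.5 to 214. That interval leaves out the spread between libraries. In edgeR, which takes it in, the difference was 5.41 ± 1.37 (adjusted p = 0.0214). In CPM the ExE libraries were at 6.21 and 8.04. At E7.0 the ExE libraries were unequal, at 6.56 and 29.5 CPM, and the 4 embryonic libraries lay between 0 and 0.609 CPM, a difference of 5.70 ± 0.94 (adjusted p = 0.000859). At E7.5 ExE held 17.4 and 20.4 CPM and the 6 embryonic libraries 0.101 to 1.93 CPM, a difference of 4.35 ± 0.75 (adjusted p = 0.000852). No embryonic library reached the lowest ExE library. The second E7.0 ExE library, with 29.5 CPM of Gata2, also held more Lmo2 (20.9 CPM against 0.820 CPM), a partner of GATA factors in blood, and more Elf5, a trophoblast factor (78.3 CPM against 26.9 CPM), and more Prl8a2, a prolactin of the maternal decidua (7.20 CPM against 0). The part of these differences in the Gata2 level was not tested, and Gata2 stayed called at E7.0 with either ExE library left out.

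Gata3 was called higher in ExE at E6.5 and E7.0 and not at E7.5. It was at 16.0 and 24.4 CPM in E6.5 ExE and at 0.228 and 1.09 CPM in Epi, a difference of 4.88 ± 1.19 (adjusted p = 0.0202). At E7.0 it was at 8.10 and 12.95 CPM in ExE and between 0 and 3.40 CPM in A and P, a difference of 2.79 ± 0.85 (adjusted p = 0.0352). At E7.5 ExE held 9.54 and 16.1 CPM, which fell within the span of the embryonic regions, from 2.16 CPM in a P library to 35.5 CPM in an AM library. The difference was 0.18 ± 0.76 (adjusted p = 0.896), and its sign turned with scaling by total counts (-0.10). The change of the ExE difference from E6.5 to E7.5 was -4.70 ± 1.42 and was not called (adjusted p = 0.281). DESeq2 gave -4.79 with an adjusted p of 0.0192 for it, and edgeR fitted on the groups of this comparison alone gave -4.70 with an adjusted p of 0.0218. Without the filter on low counts it was -4.75 with an adjusted p of 5.68e-07. None of the 6 members passed in this comparison in the main edgeR fit, beside 0.187% of all genes called in either direction. At an unadjusted p under 0.05 there was 1 member, and DESeq2 called 1.

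Gata6 was at 20.2 and 21.0 CPM in E6.5 ExE and at 4.22 and 6.14 CPM in Epi, a difference of 1.98 ± 0.58 (adjusted p = 0.041). At E7.0 ExE (12.9 and 19.3 CPM) lay among A (3.50 and 14.0 CPM) and P (15.8 and 23.5 CPM), with a difference of 0.30 ± 0.48 (adjusted p = 0.697). At E7.5 ExE held 11.3 and 21.4 CPM and the embryonic libraries 2.89 to 12.5 CPM. They overlapped, and the difference was 1.31 ± 0.43 (adjusted p = 0.0371). With total counts as the scaling it was 0.99 (adjusted p = 0.169).

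Gata4 did not pass the test between ExE and the embryonic part at any stage. It was at 59.7 and 67.1 CPM in E6.5 ExE and at 23.6 and 33.1 CPM in Epi, and these libraries did not overlap (1.16 ± 0.80, adjusted p = 0.422). Fitted on these 2 groups alone, edgeR gave 1.18 with an adjusted p of 0.00246. At E7.0 the ExE libraries were at 13.9 and 44.0 CPM and the embryonic ones at 6.32 to 26.0 CPM (0.97 ± 0.67, adjusted p = 0.338). At E7.5 ExE was at 34.6 and 36.9 CPM and the embryonic libraries at 3.70 to 39.3 CPM (1.12 ± 0.61, adjusted p = 0.219). Without the filter on low counts the E7.5 difference was 1.06 and was called (adjusted p = 0.0106). In each of A, P and AM the Gata4 level differed by over 2-fold between the 2 libraries of the group, and visceral endoderm markers were uneven between the same libraries at E7.5. Their part in the Gata4 level was not tested.

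**Figure D2:**
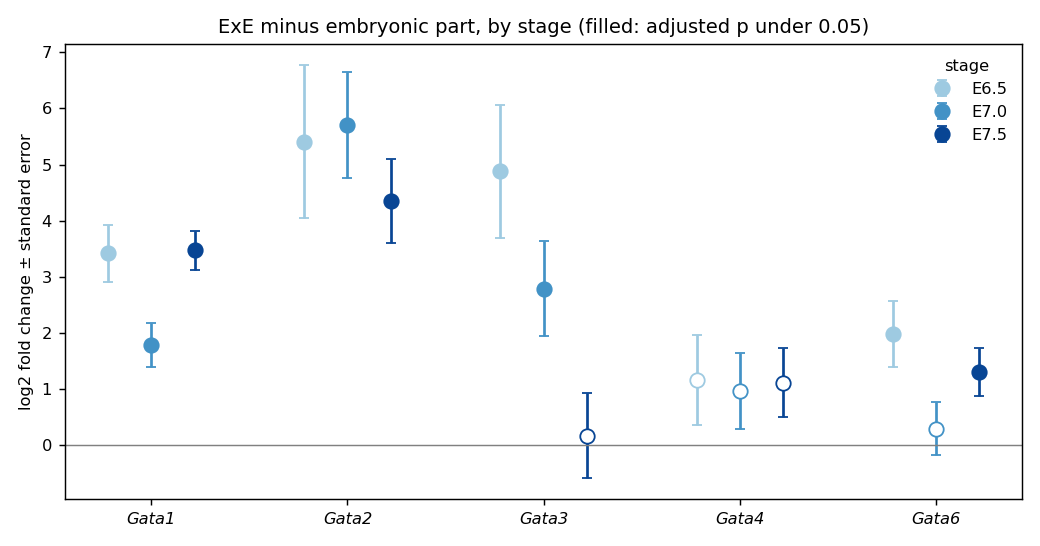
Log2 fold change of ExE against the embryonic part at E6.5, E7.0 and E7.5 (vertical axis, points, with bars of 1 standard error) for the 5 members with counts at all stages (horizontal axis); filled points passed an adjusted p of 0.05. Gata1 and Gata2 are filled at all 3 stages, Gata3 drops to 0.18 at E7.5, and Gata4 is open throughout.

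The calls at E6.5 rested on the full set of libraries. With any 1 of the 4 libraries left out, Gata1 alone remained called, and the fold changes of Gata2, Gata3 and Gata6 stayed positive, with adjusted p from 0.0706 to 0.339. The Gata2 value then ranged from 4.50 to 9.38, the highest against the Epi library with 0 counts, and that of Gata3 from 4.17 to 6.39. At E7.0 Gata3 was not called without either ExE library or the first P library (adjusted p from 0.0996 to 0.125). Its value there ranged from 2.22 to 6.37, the highest without the second A library, and that of Gata2 from 4.23 to 8.27. Fitted on the E7.0 groups alone, Gata2 stayed called there and Gata1 (adjusted p = 0.0795) and Gata3 (0.168) did not. At E7.5 Gata6 was called without the first P library alone, and without each of the other 7 libraries it was not (adjusted p from 0.061 to 0.49). Gata1 and Gata2 were called at E7.0 and E7.5 with each library left out in turn.

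Within the embryonic part at E7.5, AM had the highest mean level of all 6 members. For Gata2 (1.38 ± 0.78 CPM, SD, n = 2), Gata4 (25.4 ± 20 CPM, n = 2) and Gata5 its libraries overlapped those of A, P or both, and for Gata1, Gata3 and Gata6 they did not. The shares of all genes that are highest in AM, or clear of A and P there, were not counted. Neither is therefore read as a trait of the family. Gata3 was at 33.1 and 35.5 CPM in AM, above A (8.20 and 10.7 CPM) and P (2.16 and 6.95 CPM) without overlap. Against A it was 1.85 ± 0.96 higher on the log2 scale (adjusted p = 0.566) and against P 2.93 ± 1.02 (adjusted p = 0.538), so neither passed the test over all genes. Without the filter on low counts edgeR called both (adjusted p = 0.0174 and 2.59e-05). Gata6 was at 10.8 and 12.5 CPM in AM, 4.70 and 5.06 CPM in A and 2.89 and 7.08 CPM in P, and was not called (1.25 ± 0.56 against A, adjusted p = 0.427, and 1.21 ± 0.57 against P, adjusted p = 0.766). Gata1 was at 8.13 and 11.6 CPM in AM, 1.88 and 3.39 CPM in A and 0.918 and 1.21 CPM in P. It was 3.18 ± 0.53 higher in AM than in P (adjusted p = 0.0283) and 1.88 ± 0.48 higher than in A (adjusted p = 0.0558). This was the 1 member called higher between AM and P, beside 0.0417% of all genes. It was not called with any 1 of the 4 libraries left out (adjusted p from 0.0674 to 0.327), nor with these 2 groups fitted alone (0.252).

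No member was called between AM and A in the main edgeR fit, beside 1.57% of all genes. At an unadjusted p under 0.05 there were 2, and DESeq2 called 1, Gata1 (adjusted p = 0.00656). With a block for the replicate number edgeR called Gata1 (1.87, adjusted p = 0.0386). Without the filter on low counts it called Gata1 (1.86, adjusted p = 0.0256) beside Gata3. AM libraries also held more of a list of 10 surface ectoderm genes than A and P did: these summed to 2560.1 to 3028 CPM in AM, 362 to 436 CPM in A, 653 to 1432 CPM in P and 1567 to 2855 CPM in ExE. Of the 8 tested, 2 were higher in AM than in A, the epithelial keratins Krt8 (2.92 ± 0.51, adjusted p = 0.00714) and Krt18 (2.83 ± 0.50, adjusted p = 0.00714). The defining surface factor Tfap2a was near 0 in AM (1 count in the 2 libraries). Of 15 visceral endoderm genes, 3 were higher in AM than in A. The part of these genes' cells in the levels of Gata3 and Gata1 was not tested.

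Between P and A no member was called by edgeR or DESeq2 at either stage, beside 0.00694% of genes at E7.0 and 0.236% at E7.5. At an unadjusted p under 0.05 there was 1 member at E7.0, Gata1 (-1.19 ± 0.49), and there were 2 at E7.5, Gata1 (-1.30 ± 0.52) and Gata5 (-2.44 ± 1.14). At E7.0 Gata6 was higher in P (15.8 and 23.5 CPM) than in A (3.50 and 14.0 CPM) without overlap, a difference of 1.18 ± 0.56 (adjusted p = 1).

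Gata3 rose with stage in the embryonic part, and Gata5 had most of its counts at E7.5. From E7.0 to E7.5 (the mean of A, AM and P against the mean of A and P) 2 of 6 were called higher and none lower, beside 2.9% of all genes higher. One of the 2 is Gata5, from whose call nothing is read, since it passed the filter on low counts through its E7.5 libraries and so had to differ with stage. AM has no counterpart at E7.0. Gata5, known for the lining of the heart, had 4 counts in the 4 embryonic libraries of E7.0 and 375 in the 6 of E7.5, a pooled ratio of 53.4 with a 95% counting interval of 20.7 to 197. By region, A went from 4 counts to 126, a ratio of 20.2 with an interval of 7.71 to 75.4. P went from 0 counts to 14, at least 6.14-fold higher against a floor of 3 counts over the group.

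At E7.5 Gata5 was at 3.43 and 12.7 CPM in AM, 3.65 and 4.61 CPM in A, 0.604 and 0.918 CPM in P, and 1.05 and 5.49 CPM in ExE. P was below every other library of that stage. Gata3 rose in the embryonic part from between 0 and 3.40 CPM at E7.0 to between 2.16 and 35.5 CPM at E7.5 (2.88 ± 0.73, adjusted p = 0.0355). That call was lost with 8 of the 10 libraries left out in turn, the exceptions being the second A library of E7.0 and the first P library of E7.5, with adjusted p from 0.0569 to 0.17, and with these groups fitted alone (0.0759). Leaving out 1 library moved its value between 2.31 and 6.47, the highest without the second A library of E7.0. Of 9 tested genes of a heart list, which holds no GATA gene, 7 were not called from E7.0 to E7.5 and 2 were higher, the chromatin remodelling subunit Smarcd3 (3.02 ± 0.50, adjusted p = 0.00323) and the muscle factor Mef2c (3.31 ± 0.74, adjusted p = 0.0172). The later heart factor Nkx2-5 had 10 counts in the 6 embryonic libraries of E7.5.

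The other stage steps gave no call among the members in the main edgeR fit. From E6.5 to E7.0 no gene at all was called in the embryonic part (0% of tested genes). Of the members, 1 had an unadjusted p under 0.05, Gata6 (1.32 ± 0.52), and DESeq2 called none. In ExE 0 members were called from E6.5 to E7.0, beside 0.111% of all genes, with 1 member at an unadjusted p under 0.05, Gata1 (-1.14 ± 0.46), and none in DESeq2. From E7.0 to E7.5 ExE had 0 called beside 0.0208%, 2 members at an unadjusted p under 0.05, and 2 called by DESeq2. One was Gata1 (1.70 ± 0.46, adjusted p = 0.192 in edgeR). The other large step was Gata5, with 1 count in E7.0 ExE and 80 in E7.5 ExE, a ratio of 82.8 whose counting interval runs from 14.4 to 3310. Nothing is read from that step either, since Gata5 passed the filter on low counts through its E7.5 libraries.

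Proteins that work with GATA factors followed ExE in part. Of 12 partner genes, 10 were tested: the calls in ExE were 3 up and 1 down at E6.5, 6 and 1 at E7.0, and 7 and 1 at E7.5, read against the shares of all genes given above. Their median log2 fold changes were 0.30, 2.08 and 3.54, against 0.03, -0.04 and -0.02 over all genes. Zfpm1, also called FOG1, the cofactor that Gata1 needs in red cells, was higher in ExE at all 3 stages (3.42 ± 0.81 with an adjusted p of 0.0132 at E6.5, and 2.34 ± 0.55 with 0.00695 at E7.5). The co-repressor Cbfa2t3 was likewise higher at all 3, with 0 counts in E6.5 Epi and 136 in E6.5 ExE. Ldb2, a LIM-binding adaptor, went the other way at each stage, at -6.47 ± 1.18, -3.73 ± 0.85 and -4.10 ± 0.85.

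Partners known from blood were highest in E7.5 ExE. Tal1, a master factor of blood that joins Gata1 on DNA, had 0 counts in E6.5 ExE, 0.765 and 2.88 CPM in E7.0 ExE and 21.9 and 24.9 CPM in E7.5 ExE. It was 3.59 ± 0.83 higher in ExE than in the embryonic part at E7.5 (adjusted p = 0.00743). Lmo2, which bridges Tal1 and GATA factors, stood at 33.5 and 33.8 CPM in E7.5 ExE (3.55 ± 0.67, adjusted p = 0.00183). Runx1, a blood factor also expressed in trophoblast, was at 18.2 and 21.1 CPM there (3.68 ± 0.53, adjusted p = 0.000186).

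Globins were at or near 0 at E6.5 and E7.0, when Gata1 was already higher in ExE. The embryonic globin Hbb-bh1 had 0 counts in every E6.5 and E7.0 library and 80 and 784 counts in the E7.5 ExE libraries. It passed the filter on low counts through those ExE libraries, so nothing is read from its call at E7.5. The other embryonic globins of the list had few counts, at most 6 for Hbb-y and 9 for Hba-x in any embryo library. Of 9 tested genes of a red cell and vessel list of 15, 1 was called at E6.5 and at E7.0, the erythropoietin receptor Epor, which was lower in ExE (-2.96 ± 0.85 and -3.42 ± 0.80, adjusted p = 0.0384 and 0.0079), and 3 were higher at E7.5. Those 3 were Hbb-bh1, the vessel cadherin Cdh5 (3.98 ± 1.25, adjusted p = 0.0344) and the red cell factor Nfe2 (2.69 ± 0.77, adjusted p = 0.02). Blood markers summed to 1.69 to 3.06 CPM in E6.5 ExE, where Gata1 was at 20.3 and 25.7 CPM, and to 9.64 to 69.3 CPM in E7.5 ExE. Of 7 markers of decidua and maternal blood, the 4 adult beta globins were at 0 counts in all embryo libraries. The 7 summed to 7.00 to 7.64 CPM in E7.5 ExE, against 0.658 to 2.34 CPM in A, AM and P, and to 2.35 to 7.92 CPM in E7.0 ExE, against 0.381 to 1.98 CPM in A and P. Of the 3 tested, 1 was higher in ExE at E7.0, Prl8a2 (5.00 ± 1.67, adjusted p = 0.0462), and 1 at E7.5, the small heat shock protein Cryab (3.65 ± 0.82, adjusted p = 0.005). All Prl8a2 counts of E7.0 ExE lay in its second library, so that level rested on a single library. The part of maternal tissue in the ExE levels of the members was not tested.

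Trophoblast genes stood high beside the members in every ExE group: of 11 tested, 7 were higher at E6.5, 9 at E7.0 and 8 at E7.5, and none was lower. They included Elf5 (6.58 ± 0.83 at E6.5, adjusted p = 0.000162), Tfap2c (5.49 ± 0.67, adjusted p = 7.53e-05) and Esrrb (6.13 ± 0.66, adjusted p = 2.35e-05), which specify trophoblast stem cells. Of 15 visceral endoderm genes, 0 were called at E6.5, 3 were higher and 1 lower at E7.0, and 6 were higher and 1 lower at E7.5. Parietal endoderm genes went both ways in ExE, more of them higher: of 9 tested, 5 were higher and 1 lower at E6.5, 5 and 2 at E7.0, and 4 and 2 at E7.5. At E6.5, where Gata6 was called, those higher included Lama1 (2.80 ± 0.50, adjusted p = 0.00185) and Pth1r (2.74 ± 0.54, adjusted p = 0.00419). The 1 lower there is not named here. The part of endoderm cells in the Gata6 and Gata4 levels was not tested. Proteins with a GATA-type zinc finger but outside the family had few calls: of 9, none was higher and 1 lower at E6.5 and at E7.0, and 1 was higher and 1 lower at E7.5. These were Mta2, lower at each stage, and Mta3, higher at E7.5 (0.96 ± 0.24, adjusted p = 0.0104), both subunits of a histone deacetylase complex.

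The members' patterns over the 18 embryo libraries, as Pearson's r of log2(CPM + 1) and as a description only, were closest for Gata1 and Gata2 (0.79), then Gata1 and Gata3 (0.67), Gata1 and Gata6 (0.63), and Gata3 and Gata5 (0.55). Gata4 and Gata5 gave -0.10. Among 12230 genes with a mean of at least 1 CPM, the closest to Gata1 was Stard10 (0.92), to Gata2 Nfatc1 and Pitx1 (both 0.95), and to Gata3 Igfbp5 and Nfkbia (both 0.90). For Gata4 these were Ehd1 (0.93) and Car7 (0.92), for Gata5 Kcnab1 (0.88), and for Gata6 Terf2 (0.86). The libraries share stage and dissection, so such values describe 9 groups rather than 18 independent points.

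In the stem cell line Gata4 and Gata6 were the members that differed between KO and WT, and they did so after differentiation. At D8 2 of the 5 members tested were called higher in KO and none lower, beside 12.5% of all genes higher and 8.24% lower. Gata5 did not pass the filter on low counts in cells, with at most 7 counts in a library. The differentiation itself moved its markers in both genotypes: 6 of 6 naive stem cell markers fell from D0 to D8, and 5 of 6 neural progenitor markers rose. The other, Sox2, went from a mean of 673 to 371 CPM in WT and from 575 to 318 CPM in KO. Of all tested genes, 33.4% were called higher and 31.1% lower in KO. In WT 27.9% were called higher, and 8368 genes were called in either direction.

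Gata4 was at 127, 134 and 230 CPM in the KO libraries at D8 and at 19.1 and 26.5 CPM in WT. The difference was 2.84 ± 0.29 (7.14-fold, adjusted p = 0.00088), and every KO library was above both WT libraries. Gata6 was at 65.1, 83.7 and 131 CPM in KO and at 9.31 and 15.7 CPM in WT, a difference of 2.89 ± 0.43 (7.40-fold, adjusted p = 0.00218), again without overlap. Both stayed called with each of the 5 D8 libraries left out in turn, between 2.42 and 3.04 for Gata4 and between 2.47 and 3.27 for Gata6.

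**Figure D3:**
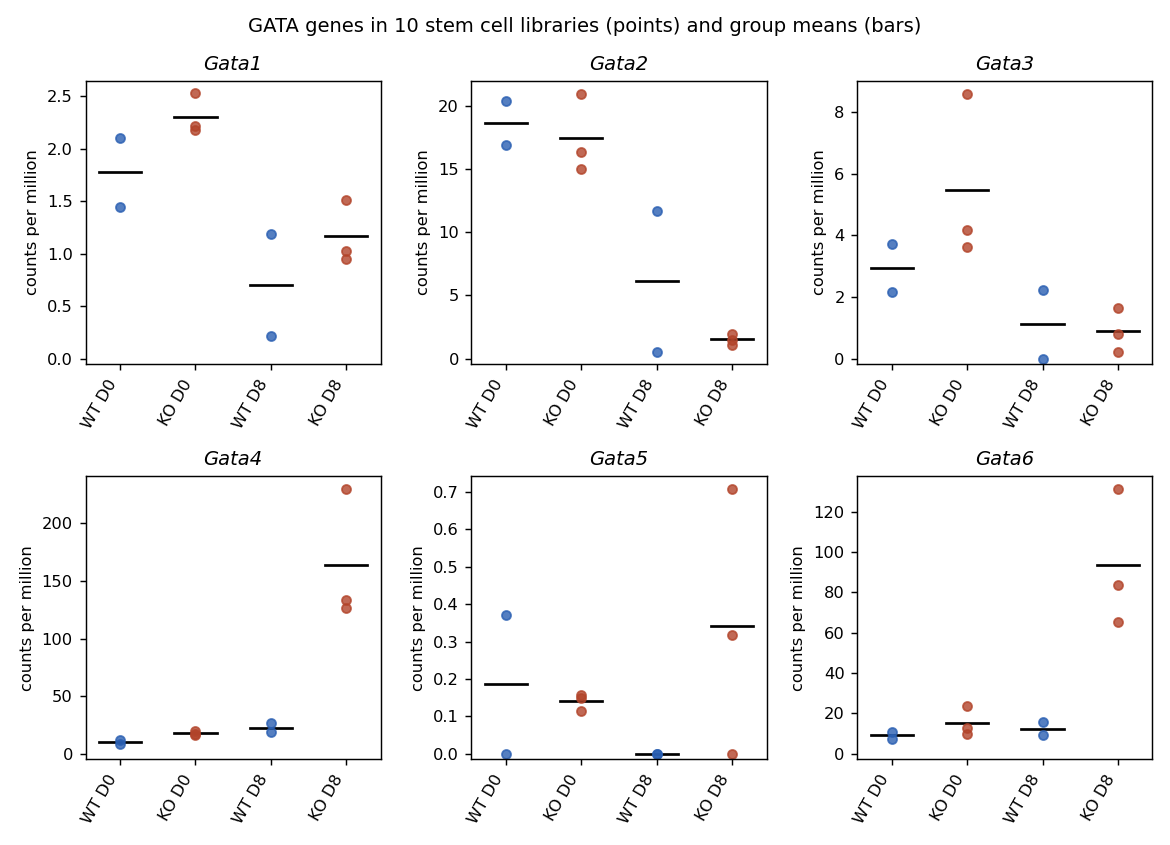
Level of each GATA gene in CPM (vertical axis, its own linear scale per gene) in the 10 stem cell libraries by genotype and day (horizontal axis); points are libraries, bars group means, blue WT and red KO. Gata4 and Gata6 in KO at D8 stand apart from the other groups, and the 2 WT libraries at D8 differ in Gata2, at 11.7 and 0.536 CPM.

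At D0 no member was called between KO and WT by the main edgeR fit or DESeq2, beside 0.273% of all genes. At an unadjusted p under 0.05 there was 1, Gata4, at 16.1, 16.9 and 20.1 CPM in KO and 8.82 and 12.3 CPM in WT (0.73 ± 0.30, adjusted p = 0.294). These libraries did not overlap, and edgeR on the D0 libraries alone gave 0.72 with an adjusted p of 0.038. Gata6 at D0 was at 9.66, 12.8 and 23.6 CPM in KO and 7.23 and 10.99 CPM in WT, which overlap (0.75 ± 0.42, adjusted p = 0.462). The difference at D8 minus that at D0 was 2.11 ± 0.40 for Gata4 (adjusted p = 0.021), the 1 member called higher, beside 3% of all genes higher. It was 2.14 ± 0.58 for Gata6 (adjusted p = 0.0533), which DESeq2 called (2.07, adjusted p = 0.00676). The Gata4 call was lost without 5 of the 10 libraries in turn (KO library 2 or 3 at D0, either WT at D0, or the first WT at D8), with adjusted p from 0.0578 to 0.106.

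Over differentiation, WT cells raised 1 of 5 members, Gata4, from 8.82 and 12.3 CPM to 19.1 and 26.5 CPM (1.10 ± 0.32, adjusted p = 0.0113), beside 27.9% of all genes higher. It was not called without the second WT library of either day (adjusted p = 0.0853 without that of D0 and 0.077 without that of D8). Without the first WT library of D8, 4 members were called: Gata4 was higher, and Gata1 (-2.88), Gata2 (-4.99) and Gata3 (-7.74, against a library at 0 counts) were lower. KO cells raised 2, Gata4 (3.21 ± 0.26, adjusted p = 1.42e-06) and Gata6 (2.60 ± 0.36, adjusted p = 7.99e-05), and lowered 2, Gata2 (-3.51 ± 0.70, adjusted p = 0.00113) and Gata3 (-2.59 ± 0.84, adjusted p = 0.0183), beside 33.4% of all genes higher and 31.1% lower. Shares of that size mean that a call in these comparisons is common among genes. The Gata3 fall in KO was not called without KO library 2 of D0 (adjusted p = 0.0789) or KO library 3 of D8 (0.0544).

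Gata2 differed widely between the WT libraries of D8. It was at 16.9 and 20.4 CPM in WT and 14.98, 16.4 and 21.0 CPM in KO at D0, which overlap. At D8 KO held 1.11, 1.48 and 1.95 CPM and WT 11.7 and 0.536 CPM, so the first WT library was still high. The KO difference at D8 was -1.95 ± 0.79 (adjusted p = 0.0977), -2.99 without the second WT library (adjusted p = 0.00269) and 1.38 without the first (adjusted p = 0.176). The direction thus rested on 1 library.

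That first WT library also held more Tal1, at 12.4 CPM against 0.750 CPM in the second WT library, and Gata3 at 2.22 CPM against 0. Tal1 was the 1 of 9 tested partner genes called between KO and WT at D8, lower in KO (-3.62 ± 1.11, adjusted p = 0.0409). The KO libraries averaged 0.51 ± 0.52 CPM (SD, n = 3), and the second WT library lay within that spread. The Tal1 difference in level thus lay in the first WT library. Gata2, Gata3 and Tal1 are known together in V2b interneurons of the spinal cord. The 11 genes of a V2 interneuron list summed to 233 CPM in the first WT library and 225 CPM in the second, and to 131 to 194 CPM in KO. The GABA-synthesis enzymes of that list were lower in KO, Gad1 (-1.78 ± 0.37, adjusted p = 0.00843) and Gad2 (-1.89 ± 0.59, adjusted p = 0.0445). Gata1 stayed low in cells, between 0.214 and 2.53 CPM over the 10 libraries, with no call in the 5 cell comparisons. It was called lower at D8 in KO where the compared groups were fitted alone (-0.95, adjusted p = 0.0463), and in WT without the first WT library of D8 (-2.88, adjusted p = 0.0185).

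Endoderm genes moved beside Gata4 and Gata6. In KO at D8 all 10 genes of a parietal endoderm list were higher than in WT, with a median log2 fold change of 2.71 against 0.02 over all genes. Parietal endoderm lays down the thick basement membrane of the yolk sac. The list includes the laminin chains Lama1 (2.71 ± 0.29, adjusted p = 0.000904), Lamb1 (2.91 ± 0.32, adjusted p = 0.00101) and Lamc1 (2.56 ± 0.27, adjusted p = 0.000904), and the parathyroid hormone receptor Pth1r (2.86 ± 0.33, adjusted p = 0.00106). Lamb1 was at 1133, 1575 and 2055 CPM in KO and 144 and 277 CPM in WT.

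The 10 genes summed to 11124, 13173 and 19170 CPM in KO at D8, 1508 and 3066 CPM in WT at D8, and 1293 to 1604 CPM at D0 in both genotypes. Within KO at D8 the library with the highest sum was also the highest in Gata4 and in Gata6, and the WT library with 3066 CPM was the higher WT library for both. Of 13 tested visceral endoderm genes, 8 were higher in KO, among them Sox17 (3.04 ± 0.48, adjusted p = 0.0027), a factor of all early endoderm, Dab2 (2.23 ± 0.36, adjusted p = 0.00292), an endocytic adaptor, and Ttr (3.36 ± 0.69, adjusted p = 0.00806), a thyroid hormone carrier. Afp, the defining secreted protein of visceral endoderm, was near 0 in KO at D8, with 3 to 7 counts per library. Neural progenitor markers summed to 1259.9 to 1269.7 CPM in WT and 707 to 925 CPM in KO at D8. At D0 they already summed to 681 to 748 CPM in WT and 587 to 622 CPM in KO. Most of the D0 sum was Sox2 (means of 673 CPM in WT and 575 CPM in KO), which was lower at D8 while the others rose. The part of endoderm cells in the Gata4 and Gata6 levels was not tested.

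**Figure D4:**
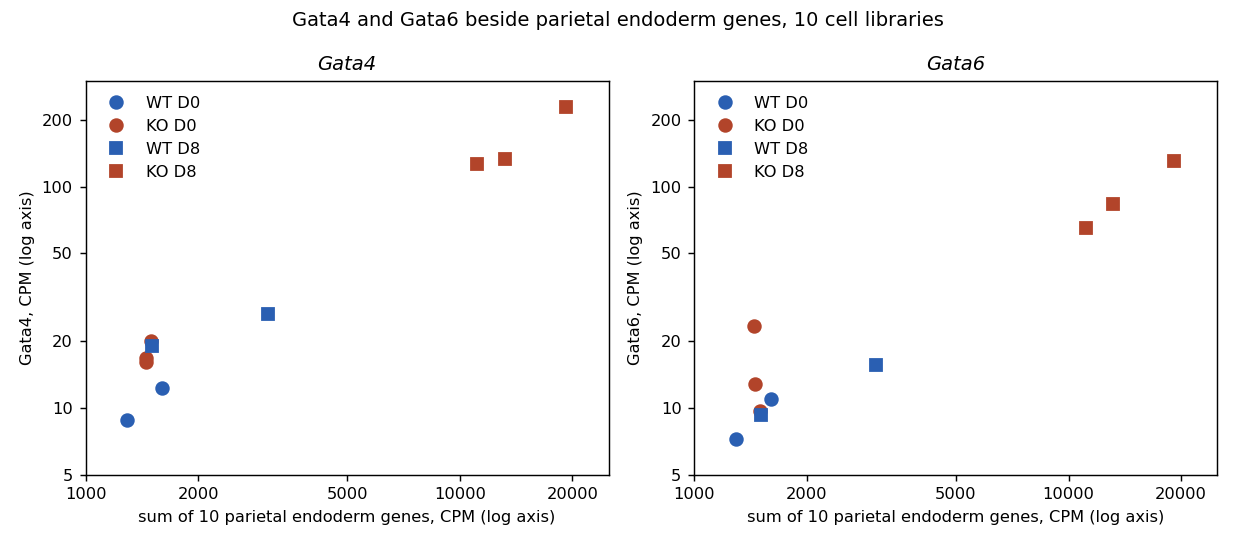
Gata4 (left) and Gata6 (right) against the summed level of 10 parietal endoderm genes, both in CPM on log axes, for the 10 stem cell libraries; circles are D0, squares D8, blue WT and red KO. The 3 KO libraries of D8 lie at sums of 11124 to 19170 CPM, apart from the other 7 at 1293 to 3066 CPM.

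Beside these gene differences, some chromosomes were shifted as wholes between KO and WT. The median log2 fold change of the 485 tested genes of chromosome 14, which holds Gata4, was 0.47 at D0 and 0.50 at D8. That of the 687 genes of chromosome 6, which holds Gata2, was 0.30 and 0.45. Chromosome 18, which holds Gata6, had medians of 0 and -0.07. Gata4 stood 0.26 above the median of its chromosome at D0 and 2.34 at D8, and Gata6 stood 2.95 above that of its chromosome at D8. The D0 difference of Gata4 was thus within 1 standard error (0.30) of its chromosome's median.

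**Figure D5:**
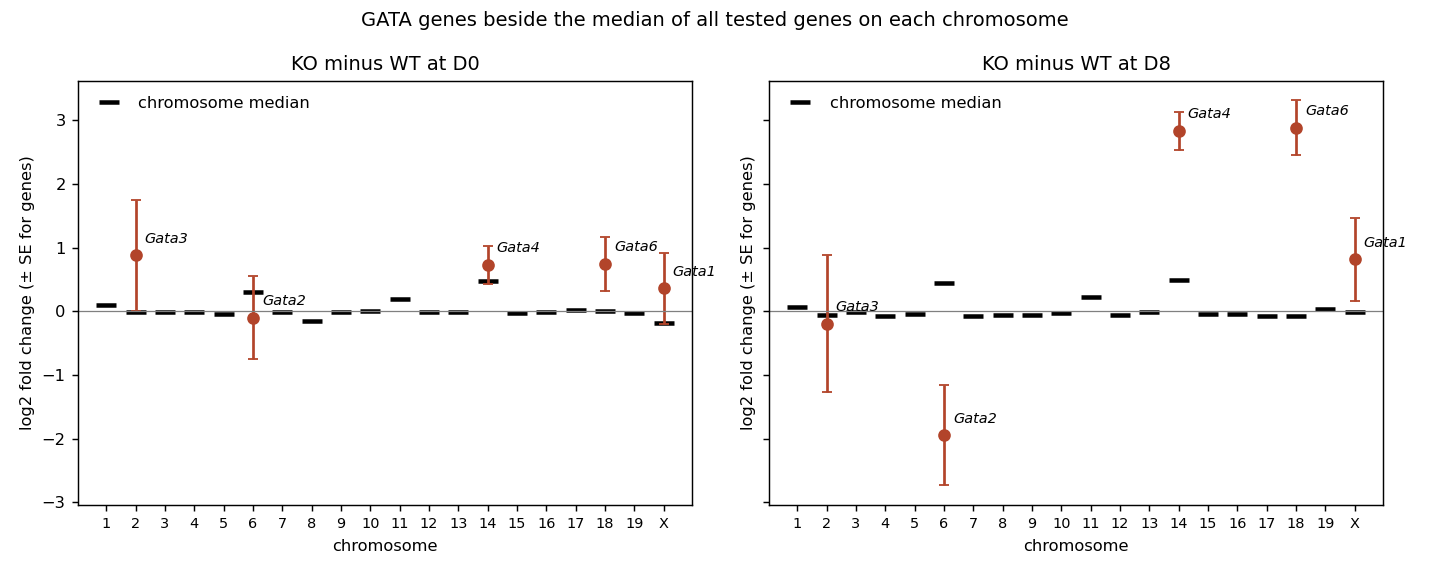
Log2 fold change of KO against WT at D0 (left) and D8 (right) on the vertical axis, by chromosome on the horizontal axis; black dashes are medians over all tested genes of a chromosome, red points the 5 tested GATA genes with bars of 1 standard error. At D8 Gata4 and Gata6 stand 2.34 and 2.95 above the medians of their chromosomes, while at D0 Gata4 lies 0.26 above that of chromosome 14.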

How the data were processed

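This account rests on RNA sequencing of 18 embryo and 10 stem cell libraries out of 120 samples, and 92 genomic samples were not analysed here. The deposited values are raw counts of reads per gene, 1 table per material. Per the submitters' processing notes the tools were CASAVA 1.8, TopHat2 2.0.9 and BWA with the build mm10. Which program counted reads, with which annotation and strand setting, is not given in the sources. Per the labels' protocols, embryo libraries were prepared with Nextera XT and cell libraries with a NEBNext kit. Columns were matched to samples by name, leaving 6 unmatched embryo columns unused. Among the cells' rows 27 gene names had become dates and were left as found.

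Genes were kept by filterByExpr (minimum count 10, minimum total 15), which left 14403 in embryos and 14629 in cells. They were tested by edgeR 4.0.16 (R 4.3.3, limma 3.58.1) with robust quasi-likelihood fits, TMM scaling and Benjamini-Hochberg adjustment, at a threshold of 0.05. One model per table covered every group, giving 12 contrasts in embryos and 5 in cells. Standard errors are the log2 fold change divided by the square root of F. Levels are CPM after TMM, with SDs over libraries. Counting intervals are at 95%, and they and the floor of 3 counts cover counting error only. Lists were counted under the main settings alone and were not tested as sets. The members and lists were chosen with earlier results of these data known.

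Any partner or GATA-type zinc finger gene could be named. From each further list and contrast, up to 4 called genes with the smallest p and up to 2 uncalled genes could be, and for each member the 3 genes of most similar pattern. Nkx2-5 and Afp were named outside this rule, after their values were seen. One gene of these lists is not reported here. Replicates of each group differed by more than counting noise. On simulated counts edgeR recovered 2.99% of 2-fold, 46.3% of 4-fold and 60.6% of 8-fold changes in the E6.5 ExE comparison (13893 genes). For the KO comparison at D8 (14247 genes) it recovered 47.8%, 86.6% and 95.5%. The alternatives were RLE or total-count scaling, DESeq2 1.42.0, a stricter low-count filter (20 counts in 2 libraries) or none, fits on the compared groups only, a block for the replicate number, and omission of single libraries.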

Additional observations from a re-analysis of the deposited data

Results flagged for a closer look

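The KO minus WT difference of Gata4 was larger at D8 than at D0 by 2.11 ± 0.40 on the log2 scale (edgeR, adjusted p = 0.021), which is a tested difference between the effects on the 2 days. At D0 the difference was 0.73 ± 0.30 and at D8 2.84 ± 0.29. All 3 KO libraries were above both WT libraries on each day.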

How the results depend on the processing

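Of simulated 4-fold changes, 46.3% were recovered for E6.5 ExE minus Epi and 44.8% for E7.5 AM minus P, the 2 embryo comparisons simulated. RLE scaling and the filter of 20 counts in 2 libraries left the number of called members as it was in all 17 comparisons, and total counts changed it in 1 (E7.5 ExE, from 3 to 2). With total counts Gata3 in E7.5 ExE became -0.10. That scaling moved the median of all genes from 0.03 to 0.36 for E6.5 ExE and from -0.02 to -0.33 for E7.5 ExE, and the share of higher calls there from 41.3% to 63.2% and from 62.9% to 44.5%. For KO minus WT at D8 the share went from 60.3% to 37.7%. The cause of the changes below was not tested.

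DESeq2 called 1 member for E7.5 AM minus A, 2 for ExE E7.5 minus E7.0, 1 for the stage change of the ExE difference and 2 for the KO difference of D8 minus that of D0. Without a filter the first 3 gave 2, 1 and 1, E7.5 AM minus P gave 3 and E7.5 ExE went from 3 to 4. Fits on the compared groups only gave 1 for E7.0 ExE, 0 for E7.5 AM minus P, 1 for the embryonic part E7.5 minus E7.0, 1 for the stage change of the ExE difference, 1 for KO minus WT at D0, and 5 in place of 4 for both E6.5 ExE and KO D8 minus D0.

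Replicate numbers were not taken as pairs, since not every pair of groups correlated by number over 0.1. Of 36 embryo pairs 23 did (from -0.12 to 0.67), and of 6 cell pairs 2 did. Within E7.5 the values were 0.67 for AM and P, 0.46 for AM and A, and 0.46 for A and P. ExE gave 0.064 to 0.27 with these. Within E7.0 A and P gave 0.42, and ExE gave 0.13 with A and 0.18 with P. Within E6.5 the value was 0.15. A rule over all pairs cannot decide whether parts of 1 stage shared a litter or day, and this was not tested. With the replicate block there was 1 call for E7.5 AM minus A (Gata1, adjusted p = 0.0386) and there were 2 for WT D8 minus D0 (with Gata2, adjusted p = 0.0455). The number of calls in the other 15 comparisons was the same.

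With single libraries left out, calls numbered 1 for E6.5 ExE, 0 for E7.5 AM minus P, 0 to 2 for the embryonic part E7.5 minus E7.0, 0 to 2 for the KO difference of D8 minus D0 and 0 to 4 for WT D8 minus D0. Among uncalled members, signs turned for Gata1 (-0.076 to 2.28) and Gata2 (-2.99 to 1.38) in KO minus WT at D8, Gata2 in the difference of D8 minus D0 (-2.88 to 1.49) and in ExE E7.0 minus E6.5 (-0.12 to 2.10), Gata3 in E7.5 ExE (-0.27 to 0.53) and in the embryonic part E7.0 minus E6.5 (-2.43 to 2.71), and Gata4 in E7.0 ExE (-0.054 to 1.54). Of 89 fitted changes of members, 31 were smaller than their own standard error.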
